A study of Mus musculus with 6 samples.

Results

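Of the mouse CC chemokine genes measured in this series, 10 were followed across all 6 arrays: Ccl2, Ccl3, Ccl4, Ccl5, Ccl6, Ccl7, Ccl8, Ccl9, Ccl12 and Ccl24. They were chosen by name as genes of chemokines made by elicited macrophages, and each was read by 1 probe set of the 25206 in the deposited table. No measured value entered the choice rule, although the choice was made with earlier results of these data known. CC chemokines are small secreted proteins whose first conserved cysteines stand side by side. They bind G protein-coupled receptors on leukocytes and set the direction in which those cells migrate. Macrophages that enter an inflamed peritoneal cavity are both a product of this traffic, since monocytes leave the bone marrow through Ccr2 and its ligands, and a source of further chemokines.

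The cells were peritoneal macrophages of C57BL/6J mice, collected 4 days after an intraperitoneal injection of thioglycollate, a sterile irritant that draws macrophages into the cavity. They were plated without any added stimulus, and RNA was extracted 10 h later and hybridised to Affymetrix whole-transcript arrays. One group came from Tet2-/- mice, which lack Tet2, an enzyme that oxidises 5-methylcytosine in DNA. The other came from wildtype littermates, with 3 arrays in each group, numbered replicates 4, 5 and 6. The comparison asks which macrophage transcripts differ without Tet2. The sources used here give neither age nor sex nor which part of Tet2 was deleted. Whether the biological replicates were different mice is not spelled out in the labels, and the p-values then cover only the variation among these arrays. The title and the genotype characteristic contradict each other for 4 of the 6 samples. Groups follow the title, and each direction below is that of the libraries labelled Tet2-/- by title.

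Values are log2 expression after RMA, the authors' background correction, normalization and probe summary. Tet2 itself was read at 4.35, 3.74 and 3.79 in wildtype replicates 4, 5 and 6 and at 3.80, 4.05 and 3.67 in the Tet2-/- replicates in the same order, so its level does not check the labels. Array medians lay between 2.77 and 2.93. Tet2-/- replicate 6 stood apart, with the highest median, the narrowest interquartile range (2.99 against 3.16 to 3.33) and the lowest mean correlation with the other arrays over probe sets (0.982 against 0.986 to 0.989). The macrophage label held: of 9 markers, 7 were matched to a named probe set. Cd68, Itgam, Csf1r, Cd14, Adgre1, Fcgr1 and Mertk lay at 7.39 or above on all 6 arrays. Their summed linear level was 5147, 4088 and 4319 in wildtype replicates 4, 5 and 6. In the Tet2-/- replicates it was 5483, 5618 and 3248, so Tet2-/- replicate 6 was the lowest. T and NK cell markers were at the low end, 11 of 12 being matched with a mean log2 level of 1.96 to 2.24 on any array.

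No CC chemokine passed the threshold between the genotypes. By limma's moderated test over all 25206 probe sets, 0 of the 10 had an adjusted p under 0.05, and all 10 had an adjusted p of 0.998, against 0% of all probe sets (percent called). At an unadjusted p under 0.05 there were also 0 of 10, where 3.61% of all probe sets were. For 0 of the 10 were the genotypes separated, with all 3 arrays of one on the same side of all 3 of the other, against 7.41% of all probe sets. The mean was lower in the Tet2-/- libraries for 9 of 10, all but Ccl5, where 50.0% of all probe sets were lower. The median difference over the 10 was -0.23 log2 units, beside 0 over all probe sets, and it was -0.04 without wildtype replicate 6. The count of 9 rests on the grouping by title: when the samples were grouped by the genotype characteristic, 1 of 10, Ccl8, had a lower mean in Tet2-/-.

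**Figure D1:**
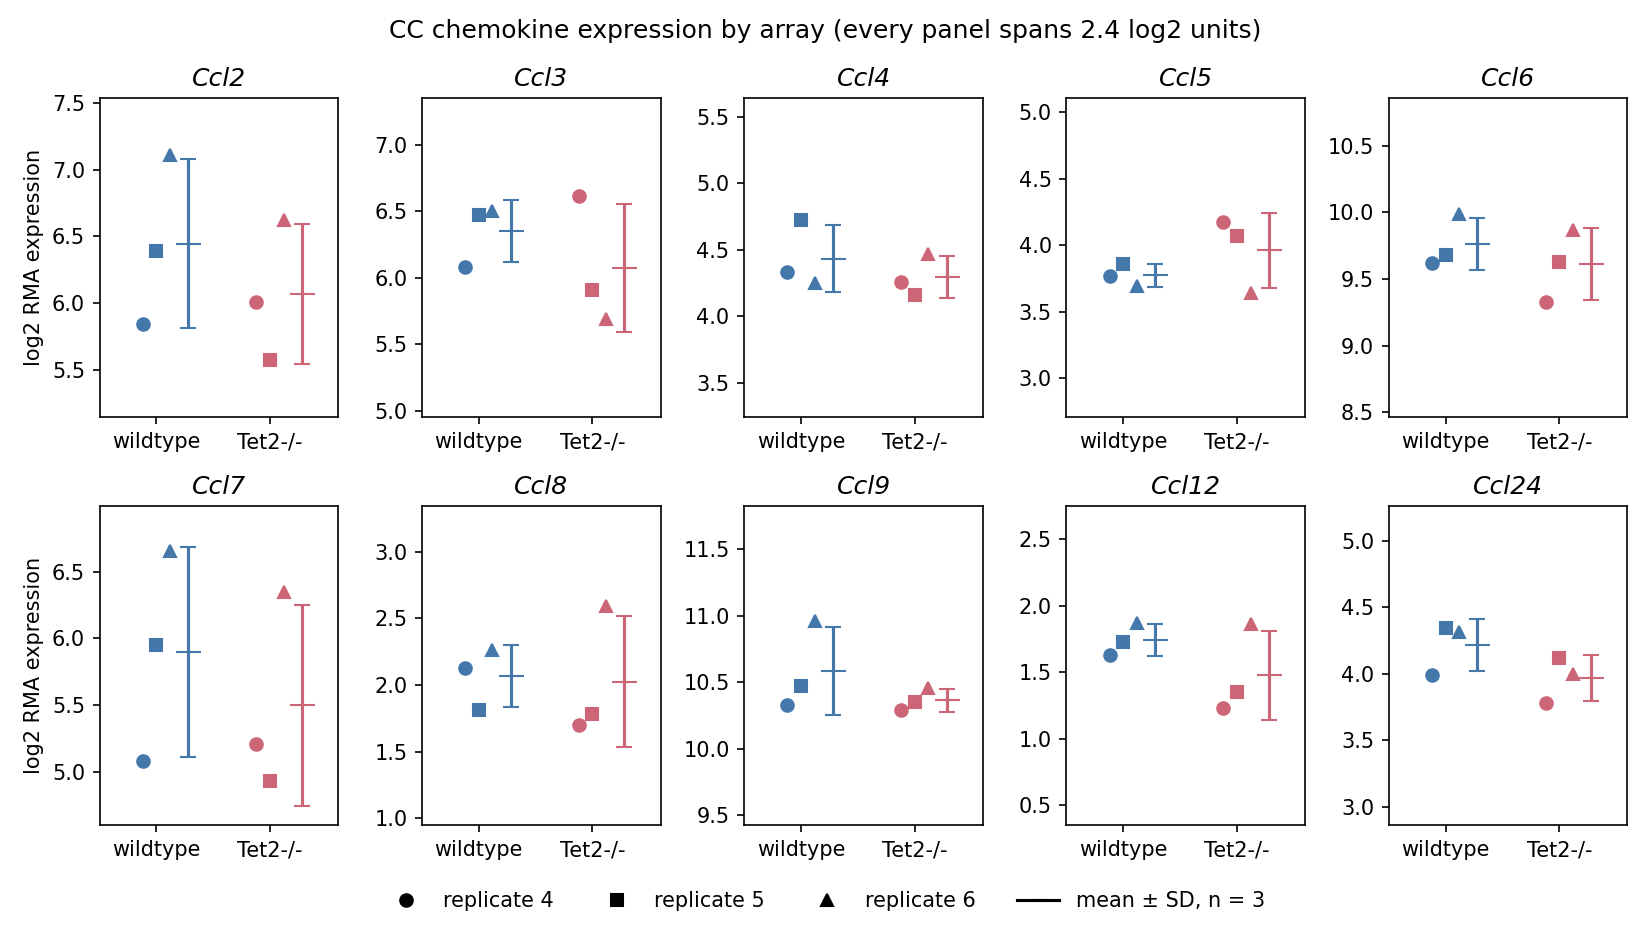
Log2 RMA expression of each CC chemokine (y axis, the same span in every panel) on the 3 wildtype and 3 Tet2-/- arrays. Symbols give the replicate number, and the dash with bars is the group mean ± SD (n = 3). The groups overlap in all 10 panels, and Ccl2 and Ccl7 have the widest spread within each genotype.

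The monocyte chemoattractant genes come first. Ccl2, Ccl7, Ccl12 and Ccl8 lie in 1 cluster on mouse chromosome 11, where Ccl7 is the coding gene next to Ccl2 and Ccl8 the one next to Ccl12. Their products attract monocytes, largely through Ccr2, with mouse Ccl8 acting mainly through Ccr8. Ccl2, the main chemoattractant of inflammatory monocytes, was at 5.84, 6.39 and 7.11 in wildtype replicates 4, 5 and 6 and at 6.01, 5.57 and 6.62 in Tet2-/- replicates 4, 5 and 6. Within each genotype, replicate 6 was the highest, and the groups overlapped across most of their range. The mean was 6.45 ± 0.637 (SD, n = 3) in wildtype and 6.07 ± 0.527 (SD, n = 3) in Tet2-/- cells. The difference of -0.38 had a 95% confidence interval of -1.15 to 0.39, which spans 0.450-fold to 1.31-fold of wildtype.

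Ccl7, a monocyte chemoattractant that also binds Ccr2, followed Ccl2 from array to array. It was at 5.08, 5.95 and 6.66 in wildtype replicates 4, 5 and 6 and at 5.21, 4.93 and 6.35 in the Tet2-/- replicates in that order. As for Ccl2, replicate 6 was the highest in both groups, and Tet2-/- replicate 5 the lowest of all 6 arrays. The difference of -0.40 (95% confidence interval -1.39 to 0.59) was small beside the SDs of 0.791 in wildtype and 0.752 in Tet2-/- (n = 3 each). Without wildtype replicate 6 it was -0.02, and the Ccl2 difference -0.05. Without Tet2-/- replicate 6 it was -0.83, and without wildtype replicate 4 the Ccl2 difference was -0.68.

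The likeness of Ccl2 and Ccl7 was measured as the root mean square difference between profiles over the 6 arrays, each profile centred on its own mean. Of the 25205 other probe sets, Ccl2 was the nearest to Ccl7, at 0.189 log2 units, and Ccl7 was the 15th nearest to Ccl2. The pair are also 2 of the widest-ranging genes of the array: the range over the 6 arrays was 1.73 log2 units for Ccl7 and 1.54 for Ccl2, larger than for 99.2% and 98.6% of probe sets. The named genes nearest to Ccl7 after Ccl2 were Mt3, a metallothionein gene (0.231), and the small nucleolar RNA gene Snord17 (0.24). Nearest to Ccl2 were the serpin gene Serpinb9b (0.141), Hilpda, a lipid droplet protein gene (0.15), and Etfrf1 (0.151). These distances describe 6 arrays and carry no test. Ccl12 and Ccl8, members of the same cluster, lay at 0.474 and 0.512 from Ccl7, ranks 841 and 1635 among the other probe sets.

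Ccl12 and Ccl8 were dim. Ccl12, a Ccr2 ligand of mice, was at 1.63, 1.73 and 1.87 in wildtype replicates 4, 5 and 6 and at 1.23, 1.35 and 1.86 in Tet2-/-. Tet2-/- replicates 4 and 5 lay below every wildtype array, whereas replicate 6 lay among the wildtype values. The difference was -0.26 (95% confidence interval -0.68 to 0.15), and -0.45 without Tet2-/- replicate 6 (unadjusted p = 0.0092, limma adjusted p = 0.369) but -0.14 without Tet2-/- replicate 4. Ccl8 was at 2.13, 1.81 and 2.26 in wildtype and at 1.70, 1.78 and 2.59 in Tet2-/- replicates 4, 5 and 6, with the Tet2-/- values on both sides of the wildtype range. Its difference was -0.04, and it changed sign on leaving out single arrays, with values from -0.33 to 0.12. On every array both genes lay below the array's median probe set, and background levels per probe set were not measured here, so whether these levels stand above background was not tested. RMA compresses differences near background.

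The RefSeq promoter table (build GRCm38.p6) held entries for 5 of the 10 members, Ccl3, Ccl6, Ccl8, Ccl9 and Ccl12, each running from 250 bases before the transcription start to 50 after it. The promoters of the neighbours Ccl8 and Ccl12 are shown because these members of the cluster shared a high value in replicate 6, and because methylated CpG is what Tet2 acts on. Capitals mark CpG dinucleotides. The Ccl8 promoter is chr11:82114935-82115234 on the plus strand and the Ccl12 promoter chr11:82101595-82101894 on the plus strand.
Ccl8: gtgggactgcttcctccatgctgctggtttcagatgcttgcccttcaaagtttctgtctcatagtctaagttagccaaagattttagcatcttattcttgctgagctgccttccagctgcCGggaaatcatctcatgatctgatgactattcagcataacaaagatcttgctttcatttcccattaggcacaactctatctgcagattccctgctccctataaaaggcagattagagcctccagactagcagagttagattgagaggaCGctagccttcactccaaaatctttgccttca
Ccl12: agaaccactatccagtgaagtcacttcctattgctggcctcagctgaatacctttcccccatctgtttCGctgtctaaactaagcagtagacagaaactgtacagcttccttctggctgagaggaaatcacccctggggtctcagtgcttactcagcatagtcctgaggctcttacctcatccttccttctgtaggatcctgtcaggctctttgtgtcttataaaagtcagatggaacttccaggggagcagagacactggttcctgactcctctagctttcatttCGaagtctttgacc

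Both hold 2 CpGs in 300 bases, and 23.3% of the 32851 promoters in the table have as few or fewer. The median promoter has 7. A TATA box match (TATAAA, either strand) begins 32 bases before the start of Ccl8 and 31 bases before that of Ccl12. Of all promoters of this length, 13.6% hold such a match anywhere. In the best local alignment of the pair, 28 of 36 columns were identical, running from that TATA box to just past the start. DNA methylation was not measured in the values used here.

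The genes Ccl3, Ccl4, Ccl5, Ccl6 and Ccl9 form a second cluster on chromosome 11, in which Ccl5 is followed by Ccl9, Ccl6, Ccl3 and Ccl4. Ccl3 and Ccl4 encode MIP-1 alpha and MIP-1 beta, which attract monocytes and T cells, and Ccl3 binds Ccr1. Ccl3 was at 6.08, 6.47 and 6.50 in wildtype replicates 4, 5 and 6 and at 6.61, 5.91 and 5.69 in the Tet2-/- replicates. Tet2-/- replicate 4 was the highest of the 6 arrays and replicates 5 and 6 the lowest. The difference was -0.28 (95% confidence interval -0.82 to 0.26), and -0.55 without Tet2-/- replicate 4 (unadjusted p = 0.0186, limma adjusted p = 0.998) but -0.09 without Tet2-/- replicate 6. Its profile lay nearest to those of Gm3411 (0.0986), Mrps27, a mitochondrial ribosomal protein gene (0.111), and Wdr76 (0.113).

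Ccl4 did not follow Ccl3, its neighbour: their profiles lay 0.373 apart, rank 11212 among the probe sets ordered by nearness to Ccl3. It was at 4.33, 4.72 and 4.25 in wildtype replicates 4, 5 and 6 and at 4.26, 4.16 and 4.47 in Tet2-/-, a difference of -0.14 (95% confidence interval -0.51 to 0.24). Its highest array was wildtype replicate 5. Ccl5, or RANTES, which attracts T cells, monocytes and eosinophils, was at 3.77, 3.86 and 3.69 in wildtype replicates 4, 5 and 6 and at 4.17, 4.07 and 3.64 in Tet2-/-. Tet2-/- replicates 4 and 5 stood above all wildtype arrays and replicate 6 below them. The difference, 0.19, was the only positive one of the 10 (95% confidence interval -0.19 to 0.56), and it was 0.35 without Tet2-/- replicate 6 (unadjusted p = 0.0265, limma adjusted p = 0.455) but 0.08 without Tet2-/- replicate 4. T and NK cells also make Ccl5. Of their 11 matched markers 6 were higher and 5 lower in Tet2-/-, and their summed linear level was 45.7 to 52.8 in wildtype and 47.2 to 56.4 in Tet2-/- arrays.

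Ccl6 and Ccl9, chemokines that macrophages make without stimulation and that act through Ccr1, lay at the bright end of every array. Ccl6 was at 9.62, 9.68 and 9.99 in wildtype replicates 4, 5 and 6 and at 9.33, 9.63 and 9.87 in Tet2-/-. Ccl9 was at 10.33, 10.47 and 10.96 in wildtype and at 10.29, 10.35 and 10.46 in Tet2-/- replicates 4, 5 and 6. At least 99.6% of the probe sets of each array had a value no higher than that of Ccl9, and at least 98.95% for Ccl6. The groups overlapped for both genes. The Ccl6 difference was -0.15 (95% confidence interval -0.55 to 0.25), and the Ccl9 difference -0.22 (95% confidence interval -0.62 to 0.18). These intervals put Ccl9 in Tet2-/- cells at 0.649-fold to 1.135-fold of wildtype, a narrower interval than for Ccl2. The Ccl6 difference was -0.28 without Tet2-/- replicate 6, -0.04 without wildtype replicate 6 and -0.01 without Tet2-/- replicate 4. Much of the Ccl9 difference lay in 1 array, wildtype replicate 6, without which it was -0.03.

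The promoters of Ccl6 (chr11:83593038-83593337, minus strand) and Ccl9 (chr11:83578587-83578886, minus strand) are shown because this neighbouring pair lay at the bright end of every array and was highest in replicate 6 of both groups. They are printed in the direction of transcription, with CpGs in capitals.
Ccl6: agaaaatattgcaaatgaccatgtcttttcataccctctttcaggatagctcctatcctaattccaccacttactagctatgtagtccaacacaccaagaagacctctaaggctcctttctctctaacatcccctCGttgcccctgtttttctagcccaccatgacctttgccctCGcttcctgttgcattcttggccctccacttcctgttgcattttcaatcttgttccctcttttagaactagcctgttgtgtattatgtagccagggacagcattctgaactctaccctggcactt
Ccl9: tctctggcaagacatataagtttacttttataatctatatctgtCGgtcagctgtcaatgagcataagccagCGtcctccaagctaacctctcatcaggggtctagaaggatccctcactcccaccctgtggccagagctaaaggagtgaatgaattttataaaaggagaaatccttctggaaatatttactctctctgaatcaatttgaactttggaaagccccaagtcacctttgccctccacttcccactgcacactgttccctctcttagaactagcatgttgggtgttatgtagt

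Each holds 2 CpGs, as do Ccl8 and Ccl12, and Ccl3 holds 3, which 31.4% of all promoters have or fall under. The Ccl6 and Ccl9 promoters shared sequence around the start: 59 of 74 aligned columns were identical (79.7%), the longest alignment among the 5 promoters. Counted from the start, the stretch ran from -59 to 14 in Ccl6 and from -18 to 48 in Ccl9. The starts themselves were thus not aligned with each other. In Ccl9 an NF-kB consensus match (either strand) begins 35 bases before the start and an AP-1 match (TGANTCA, either strand) 53 bases before it. Of the 5 promoters 1 held each of these motifs, which 8.46% and 7.81% of all promoters hold. TATAAA was matched in 3 of the 5. The STAT motif TTCNNNGAA and the C/EBP motif TTGCNNAA were matched in 0 of the 5 and in 8.30% and 10.8% of all promoters. A match says only that these letters occur in the window. The probe sequences were not used here, so whether probes of the alike genes Ccl6 and Ccl9 share targets was not checked.

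Ccl24, or eotaxin-2, lies apart from the others on chromosome 5, next to Ccl26. It attracts eosinophils through Ccr3 and is induced in macrophages by interleukin-4. It was at 3.99, 4.34 and 4.31 in wildtype replicates 4, 5 and 6 and at 3.78, 4.12 and 4.00 in Tet2-/-. The groups overlapped only through wildtype replicate 4, which lay below Tet2-/- replicates 5 and 6. The difference was -0.25 (95% confidence interval -0.60 to 0.11) with the smallest unadjusted p of the 10, 0.148 by limma. Like that of every member but Ccl4 and Ccl8, it kept its sign when any 1 array was left out (-0.36 to -0.15). Grouped by the genotype characteristic it was 0.33 (unadjusted p = 0.0387, limma adjusted p of 1.00). Of 6 matched eosinophil markers 3 were higher and 3 lower, with a summed linear level of 49.0 to 62.8 in wildtype and 27.8 to 41.7 in Tet2-/- arrays. The sum follows Siglecf, the brightest of the 6, which macrophages can also express and which differed by -1.21 log2 units. Epx and Prg2, the granule protein genes that define eosinophils, were at 1.85 to 2.07 on all 6 arrays. In bulk RNA, fewer cells of a type and less RNA per cell cannot be told apart.

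**Figure D2:**
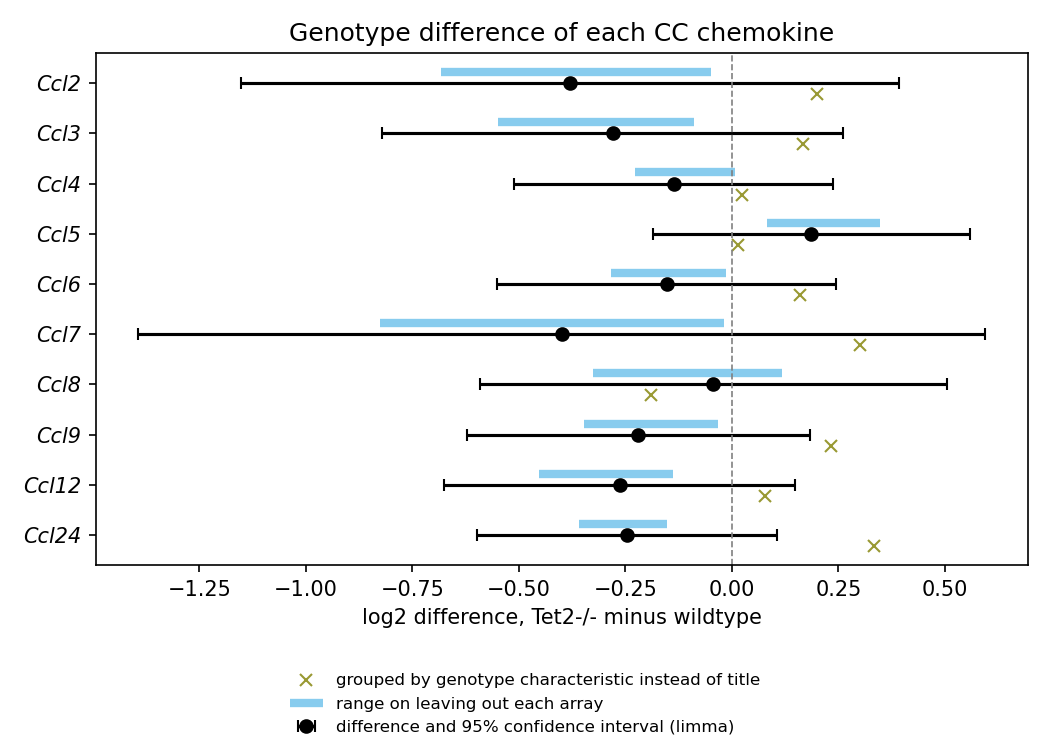
Log2 difference (x axis, Tet2-/- minus wildtype) of each CC chemokine, with the 95% confidence interval from limma in black, the range on leaving out each array as a blue bar and the value under grouping by the genotype characteristic as a cross. All 10 intervals include 0, from Ccl7 (-1.39 to 0.59) to Ccl24 (-0.60 to 0.11), and the crosses lie on the other side of 0 for 8 genes.

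For 9 of the 10 chemokines, all but Ccl24, the SD of at least 1 genotype was larger than the difference between genotypes. For 6 of 10, Ccl2, Ccl6, Ccl7, Ccl8, Ccl9 and Ccl12, the array numbered replicate 6 was the highest of its group in both genotypes, where this held for 15.9% of all probe sets. For Ccl24 it was replicate 5 in both groups (5.99% of all probe sets), and for none of the 10 replicate 4 (8.99%). Against the mean of replicates 4 and 5, replicate 6 was higher by 0.995 for Ccl2 in wildtype and by 0.83 in Tet2-/-. For Ccl7 these values were 1.145 and 1.28. The other monocyte chemoattractant genes were also among the 6, with 0.19 and 0.57 for Ccl12 and 0.29 and 0.85 for Ccl8. Over all probe sets the interquartile range of such differences ran from -0.14 to 0.145 in wildtype and from -0.195 to 0.30 in Tet2-/-. This pattern was found after the values were seen. The labels do not say what a shared number means, and it carries no test. With arrays centred on their medians, 5 of 10 showed it (all but Ccl9), against 9.67% of probe sets.

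**Figure D3:**
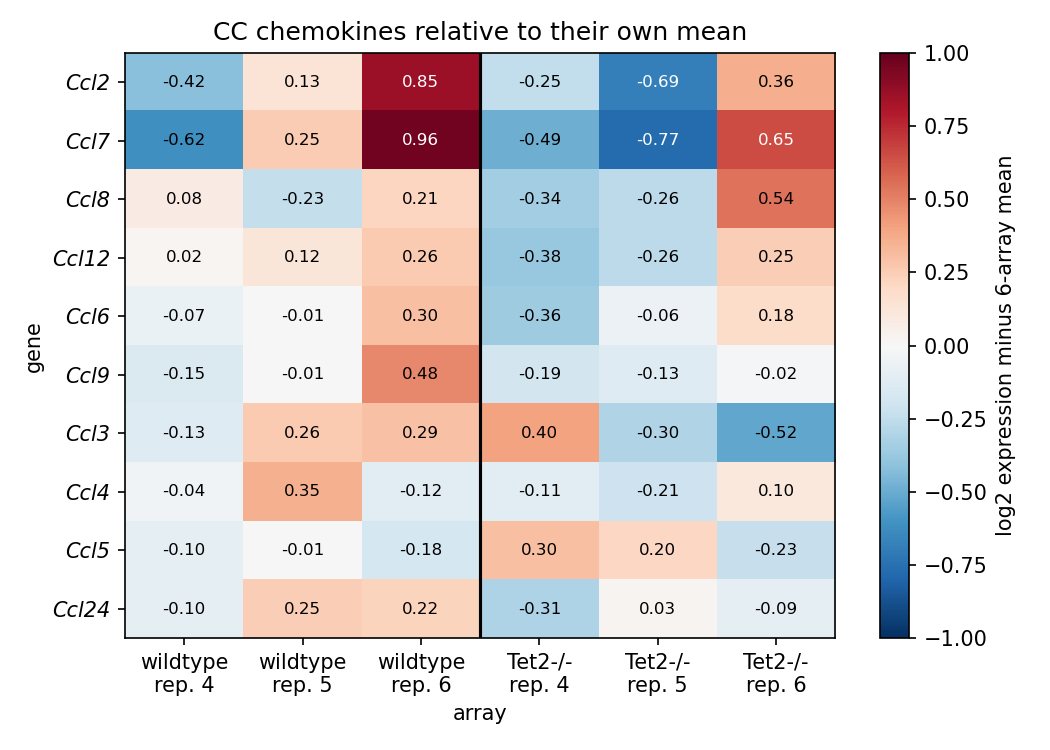
Log2 expression of each gene (rows) on each array (columns) minus the gene's mean over the 6 arrays, printed in each cell and coloured on a scale that stops at ±1. The upper 6 rows are highest in the replicate 6 column of both groups (Ccl7 at 0.96 in wildtype and 0.65 in Tet2-/-), whereas Ccl3 is so in wildtype alone, Ccl4 in Tet2-/- alone, and Ccl5 and Ccl24 in neither.

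Other cell markers varied between the same arrays, some of them in the order of Ccl2 within a genotype and some in the reverse of it. Genes of the resident large peritoneal macrophage, 13 of 13 matched, had a summed linear level of 713 to 1023 in wildtype arrays. In Tet2-/- replicates 4 and 5 it was 1487 and 1951, and in replicate 6, where Ccl2 and Ccl7 were highest of that group, 738.9. The 7 matched of 8 monocyte genes summed to 369.1, 310.6 and 288.8 in wildtype replicates 4, 5 and 6. In the Tet2-/- replicates they summed to 665.7, 976.5 and 424.4. The monocyte sums ran in the reverse of the order of Ccl2 in both genotypes. The resident macrophage sums did so in Tet2-/- only, being 1023, 713.1 and 860.6 in wildtype replicates 4, 5 and 6. B-cell markers, 9 of 10 matched, summed to 133.8, 136.9 and 177.2 in wildtype replicates 4, 5 and 6, the order of Ccl2. That rise followed Ighm, at 4.46, 4.58 and 6.09. Cd79a and Cd79b were also highest in wildtype replicate 6, whereas Ms4a1, Pax5, Cd22, Blk and Cr2 were the lowest of their group there. In Tet2-/- the B-cell markers summed to 200.9, 389.1 and 107.7, the reverse of the order of Ccl2. The 8 mesothelial and stromal markers summed to 297.9, 305.1 and 531 in wildtype, again in the order of Ccl2, and to 449.6, 326.8 and 374.1 in Tet2-/-. The T and NK cell markers summed to 45.7, 52.8 and 52.6 in wildtype, highest in replicate 5. In Tet2-/- they summed to 48.4, 47.2 and 56.4, the order of Ccl2. Their mean log2 level was 1.96, 2.177 and 2.179 in wildtype and 2.023, 2.016 and 2.24 in Tet2-/-. Whether they followed Ccl2 in wildtype thus depended on the measure. The 8 neutrophil markers summed to 103.4, 116.9 and 103.4 in wildtype and to 86.2, 114.5 and 182.4 in Tet2-/-. Tet2-/- replicate 6, where Ccl2 and Ccl7 were highest of that group, was also the highest in this sum. Most of the sum came from S100a8, at 5.79, 6.42 and 7.19 in Tet2-/-. The other neutrophil markers were dim and did not move together: in Tet2-/- replicate 6, S100a9 was the lowest of the 6 arrays (1.64) and Ly6g the highest (2.87). The 7 mast cell markers summed to 31.9 to 32.9 and 32.0 to 35.2. Their part in the chemokine values was not tested.

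The remaining CC chemokines were dim as a group. Of 13 listed, 9 were matched, with 4 higher and 5 lower in Tet2-/- (median difference -0.01) and 0 past the adjusted threshold. Ccl19, a Ccr7 ligand of lymphoid tissue, was at 1.69, 1.56 and 1.39 in wildtype replicates 4, 5 and 6 and at 2.04, 1.97 and 1.89 in Tet2-/-, groups that did not overlap (difference 0.42, unadjusted p = 0.0129, limma adjusted p = 0.998). Ccl1, the ligand of Ccr8, differed by 0.40 (unadjusted p = 0.0343) and did not overlap either, with 1.95 as the highest wildtype and 1.96 as the lowest Tet2-/- value. Ccl22, a Ccr4 ligand, differed by 0.40 and Ccl25, a Ccr9 ligand, by -0.18. Of these 9, 3 had groups that did not overlap, Ccl1, Ccl19 and Ccl25, and 2 had an unadjusted p under 0.05, against 7.41% and 3.61% of all probe sets.

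None of the receptor genes described here passed the adjusted threshold on all 6 arrays. Of 13 receptor and decoy receptor genes, all matched to a probe set, 6 were higher and 7 lower, with a median difference of -0.04 and 2 at an unadjusted p under 0.05 by limma (Ccr2 and Ccr4), where 3.61% of all probe sets were. The same 2 of the 13 had groups that did not overlap, against 7.41% of all probe sets. Ccr2, the receptor of Ccl2, Ccl7 and Ccl12, was at 6.77, 6.53 and 6.51 in wildtype replicates 4, 5 and 6 and at 8.12, 8.47 and 7.36 in Tet2-/-. All Tet2-/- arrays lay above all wildtype arrays (difference 1.38, 95% confidence interval 0.80 to 1.96, limma adjusted p = 0.665), and without Tet2-/- replicate 6 Ccr2 passed, at 1.69 (limma adjusted p = 0.0227). Within Tet2-/-, replicate 6 had the lowest Ccr2 and the highest Ccl2 and Ccl7 values, and replicate 5 the reverse. Ccr1, the receptor of Ccl3, Ccl6 and Ccl9, lay between 7.26 and 7.78 on all arrays and differed by -0.13. Ccr4, a receptor of Ccl17 and Ccl22 on T cells, was dim and differed by -0.46 with groups that did not overlap. The atypical receptor Ccrl2 differed by -0.31 and Ccr9 by -0.24, and Ccr3, the Ccl24 receptor of eosinophils, was at 1.04 to 1.39.

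**Figure D4:**
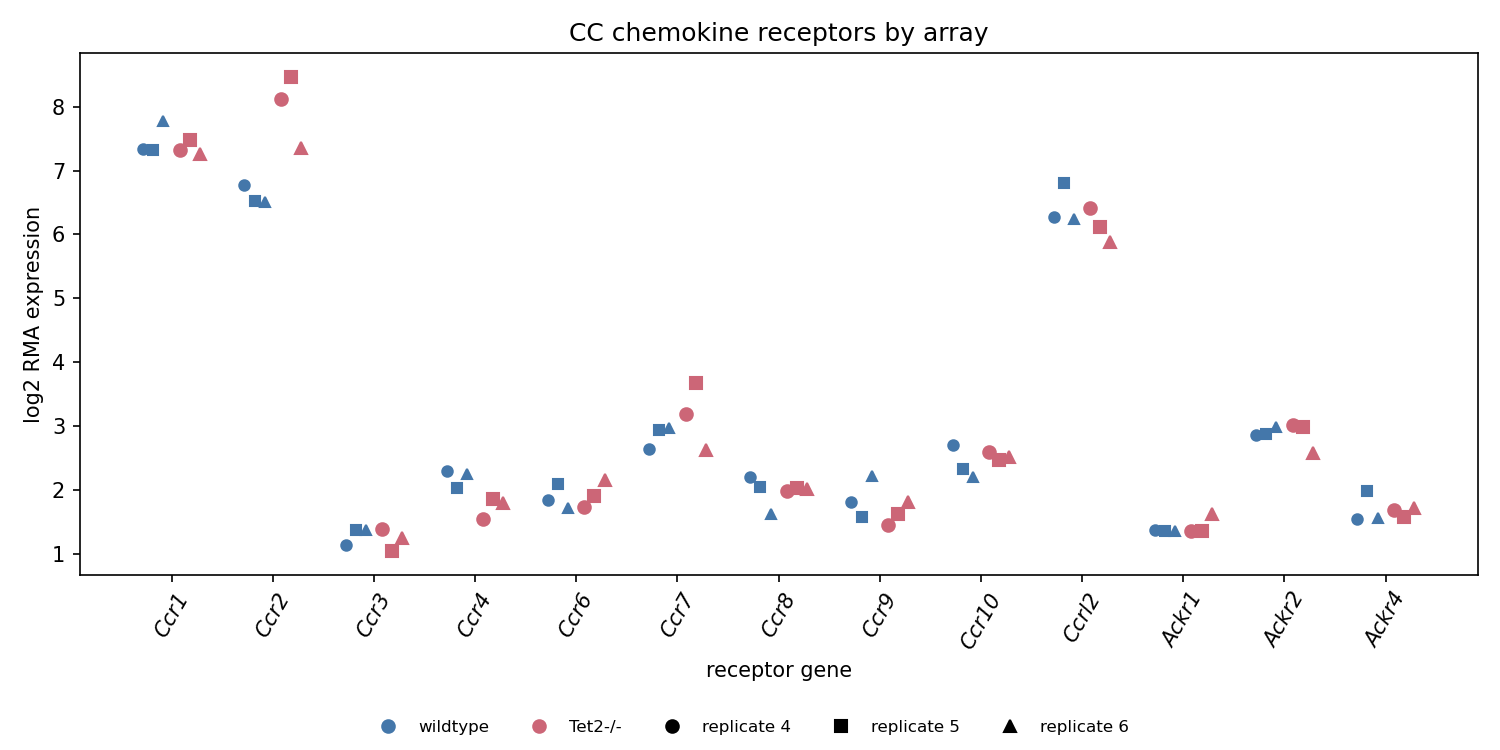
Log2 RMA expression (y axis) of the 13 matched CC chemokine receptor genes (x axis) on each array, wildtype in blue and Tet2-/- in red, with symbols for the replicate number. Only Ccr2, at 6.51 to 6.77 in wildtype and 7.36 to 8.47 in Tet2-/-, and Ccr4 separate by genotype.

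None of the listed genes that act upstream of CC chemokine RNA passed. Of 26 listed transcription factors, NF-kB inhibitors and RNA decay factors 24 were matched, with 14 higher and 10 lower in Tet2-/- (median 0.05), 0 past limma's adjusted threshold and 1 at an unadjusted p under 0.05, where 3.61% of all probe sets were. That one, Zfp36l1, which promotes decay of AU-rich mRNAs, was at 6.61, 6.39 and 6.53 in wildtype replicates 4, 5 and 6 and at 7.09, 6.95 and 6.65 in Tet2-/- (difference 0.39, unadjusted p = 0.033, limma adjusted p = 0.998). Irf1, an interferon response factor, differed by 0.33, the NF-kB subunit gene Nfkb2 by 0.41 and Fos, a subunit of AP-1, by -0.35. Groups did not overlap for 2 of the 24, Zfp36l1 and Nfkbia, a share near the 7.41% of all probe sets.

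Ccl24 is often read with the alternative activation genes. Of these, 14 of 14 were matched, 9 higher and 5 lower in Tet2-/- (median 0.21), of which 0 passed limma's adjusted threshold and 5 had an unadjusted p under 0.05, where 3.61% of all probe sets were. They did not share 1 direction: Retnla, a secreted protein gene induced by interleukin-4, differed by 1.24 (unadjusted p = 0.00335) and Alox15, a lipoxygenase gene, by 2.08, whereas the mannose receptor gene Mrc1 differed by -0.59 and the lectin gene Clec10a by -0.92 (unadjusted p = 0.00259 and 0.00274). The Alox15 groups overlapped, and those of the other 3 did not, as for 7.41% of all probe sets. Alox15 also stands among the resident large peritoneal macrophage genes summed above. It was at 5.93, 6.91 and 3.74 in Tet2-/- replicates 4, 5 and 6, and the part of resident cells in its difference was not tested. Ccl24, at -0.25, lay with Mrc1 and Clec10a in sign.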

How the data were processed

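The values are the log2 expression levels that the authors deposited for 25206 probe sets on 6 arrays. Per the submitters' processing notes they come from RMA and affy 1.36.1. That they are log2 was inferred from their range and from RMA's output. Whether the arrays were normalized together is not given in the sources used here. The platform annotation named 23185 probe sets and left 2021 unnamed. Groups follow the sample titles. Differences, Tet2-/- minus wildtype, went through a two-sided limma test (version 3.58.1, R 4.3.3, lmFit then eBayes) of all probe sets with no covariate, with Benjamini-Hochberg adjustment and a threshold of 0.05. With 3 arrays per group, their number limits the precision.

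The members and gene lists were chosen with earlier results of these data known. Besides the members, the text names the 4 genes with the smallest p of each related list and the 3 nearest profiles of the 3 widest-ranging members. Nfkbia, Ccr1, Ccr3 and the cell markers were named besides. A receptor gene of the lists is not reported here. Promoters were aligned locally with Biopython 1.88. The fit was tested on simulated data. The alternatives tried were groups from the characteristic, a replicate block, variance trend, array weights, 2 scalings, brighter probe sets and leaving out each array.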

Additional observations from a re-analysis of the deposited data

How the results depend on the processing

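Of 110 values of the 10 chemokine differences under 11 other settings, 98 kept their direction and 12 changed it, and 0 passed the threshold. Array weights moved Ccl7 to -0.79, Ccl2 to -0.63, Ccl8 to -0.27, Ccl6 to -0.30, Ccl3 to -0.12, Ccl5 to 0.32 (unadjusted p = 0.0375, limma adjusted p = 0.582) and Ccl12 to -0.42 (unadjusted p = 0.0141, limma adjusted p = 0.482). Grouping by the genotype characteristic turned Ccl2 to 0.20, Ccl3 to 0.17, Ccl4 to 0.0233, Ccl6 to 0.16, Ccl7 to 0.30, Ccl9 to 0.23, Ccl12 to 0.0767 and Ccl24 to 0.33, and the count of members with a lower mean in Tet2-/- went from 9 to 1. Leaving out single arrays gave -0.23 to 0.0067 for Ccl4 (positive without wildtype replicate 5) and -0.33 to 0.12 for Ccl8 (positive without Tet2-/- replicate 4, Tet2-/- replicate 5 or wildtype replicate 6), and 8 or 9 members stayed lower. The median over the 10 then ran from -0.33 without wildtype replicate 4 to -0.04 without wildtype replicate 6. Over all probe sets 0 passed the adjusted threshold on all 6 arrays, 2 with array weights, and 0 to 19 on leaving out single arrays (19 without Tet2-/- replicate 6, 1 without wildtype replicate 4). The receptor list had 0 to 1, the 1 being Ccr2 without Tet2-/- replicate 6. With the replicate block 0 probe sets and 0 members passed, the smallest member p being that of Ccl2 (unadjusted p = 0.0973, limma adjusted p = 0.997). Same-numbered samples did not deviate together in each pair (correlations of 0.15, -0.215 and 0.112 for replicates 4, 5 and 6 over probe sets), so the numbers were not taken as pairs. The brighter probe sets held 8 members, without Ccl8 and Ccl12. The cause of each change was not tested. The counts of lower members and of members highest in replicate 6 were added after seeing the data.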
